A study of Sus scrofa with 15 samples.

Results

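In pig embryos made by somatic cell nuclear transfer (SCNT), 11 genes were read at the four-cell stage without treatment and had a mean signal of at most 10 after each of the 2 treatments of this study. They were found among 23492 known genes of the deposited table, leaving out predicted genes whose symbol starts with LOC110. A gene was taken when its mean normalized signal was at least 100 in untreated four-cell embryos and at most 10 in each treated group. Normalized signal is the number of reads on a gene divided by a factor for each library. The genes were thus chosen by their levels in untreated and treated four-cell embryos, and the contrasts between these groups are described below without a test. The levels in donor fibroblasts and in eight-cell embryos were not used for the choice.

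The RNA-seq libraries form 5 groups of 3. PFF are cultured primary pig fetal fibroblasts, the cells whose nuclei were transferred. SCNT4c and SCNT8c are untreated nuclear transfer embryos with 4 and 8 cells. SCNT4c-KG are four-cell embryos injected with KDM4A mRNA at 1000 ng/µl 5 h after activation and kept in GSK126 at 0.1 µM until 48 h. SCNT4c-TDG are four-cell embryos made from a PFF line carrying an inducible TDG gene, with doxycycline at 500 ng/ml from 40 to 72 h. The TDG embryos therefore differ from SCNT4c in their donor line and in doxycycline as well as in TDG, and these cannot be told apart. The KG embryos differ from SCNT4c also in the injection itself, which cannot be told apart from KDM4A and GSK126. The same SCNT4c libraries stand against both treatments, and their labels number them in conflicting ways, so they are called libraries a, b and c. For each library of embryos 30 were pooled, and in a pool fewer cells of a type and less RNA per cell cannot be told apart.

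KDM4A takes methyl groups off lysine 9 of histone H3, GSK126 blocks EZH2, the enzyme that methylates lysine 27, and TDG is a glycosylase that removes oxidized forms of methylated cytosine from DNA. Methylation of both lysines and of cytosine is linked to gene silencing, and the oxidized forms of methylated cytosine are steps in its removal. An early embryo lives at first on RNA stored in the oocyte, and its own genome is switched on during the first cleavages. A gene read in a cloned embryo can therefore come from the stored RNA, from the donor nucleus or from new transcription, and RNA-seq alone does not separate these.

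The recovered reads per library numbered 12354649 to 15390472 in SCNT4c-KG, the shallowest group, 17757929 to 19564459 in SCNT4c-TDG, 20460653 to 22530486 in SCNT4c, 18083559 to 19549670 in SCNT8c and 22224949 to 22868038 in PFF. A signal of 10 stood for 6.12 to 7.88 reads in SCNT4c-KG and for up to 13.1 reads in SCNT4c-TDG. KDM4A had a mean signal of 194 in SCNT4c, 1448 in SCNT4c-KG and 775 in SCNT4c-TDG, while TDG had 1713 in SCNT4c, 4366 in SCNT4c-KG and 55575 in SCNT4c-TDG. SCNT8c replicate 3 stood apart from its group. Its correlation over genes was on average 0.872 with the SCNT4c libraries and 0.794 with the other SCNT8c libraries, while replicates 1 and 2 correlated at 0.885 with each other and on average at 0.818 and 0.765 with SCNT4c.

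The 11 genes are few among those with a SCNT4c mean of at least 100, of which there were 5644. Of these 5644, 32 (0.567%) had a SCNT4c-KG mean of at most 10, 51 (0.904%) a SCNT4c-TDG mean of at most 10, and 11 (0.195%) both, as the plot of both treated means shows. The SCNT4c means of the 11 ran from 101 to 212 with a median of 116, against a median of 600.3 over the 5644, so they came from the low end of that range. They comprise DCN, GDF15, PKIA, PLIN5 and BBS9, the predicted genes LOC100520512 (an ABC transporter), LOC100523356 and LOC100518203 (olfactory receptors), the long non-coding RNAs LOC106504325 and LOC102163572, and the pseudogene LOC100514876.

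**Figure D1:**
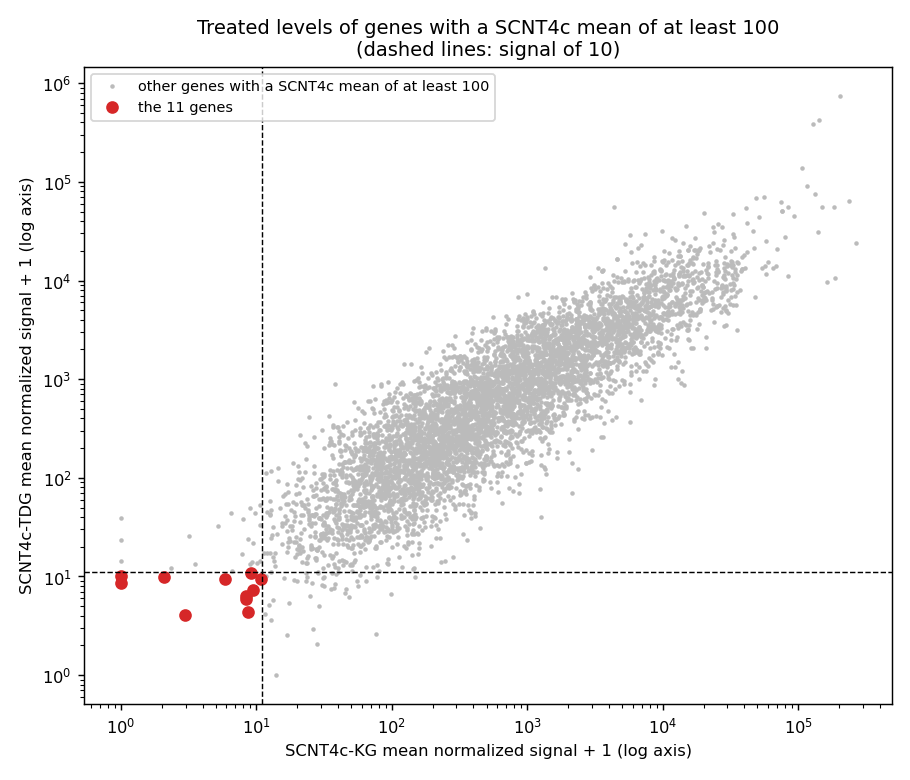
Mean normalized signal plus 1 in SCNT4c-KG (horizontal, log axis) and SCNT4c-TDG (vertical, log axis) for the 5644 genes with a SCNT4c mean of at least 100, one point a gene. The 11 genes (red) fill the corner under a signal of 10 on both axes (dashed lines), and no other gene does.

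The members fell into 3 kinds by their level in the donor cells. DCN, GDF15 and PKIA had PFF means over 1000, BBS9 and LOC102163572 had PFF means of 29.0 and 16.9, and the remaining 6 had no read in any PFF library. A PFF mean of at least 100 was held by 3 of 11 members, against 78.1% of the 5644 genes, and a PFF mean of at most 10 by 6 of 11, against 14.1%. Among the 1308 genes in the same SCNT4c range the shares were 64.2% and 21.9%. The PFF mean exceeded the SCNT4c mean for 3 of 11, against 50.5%.

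**Figure D2:**
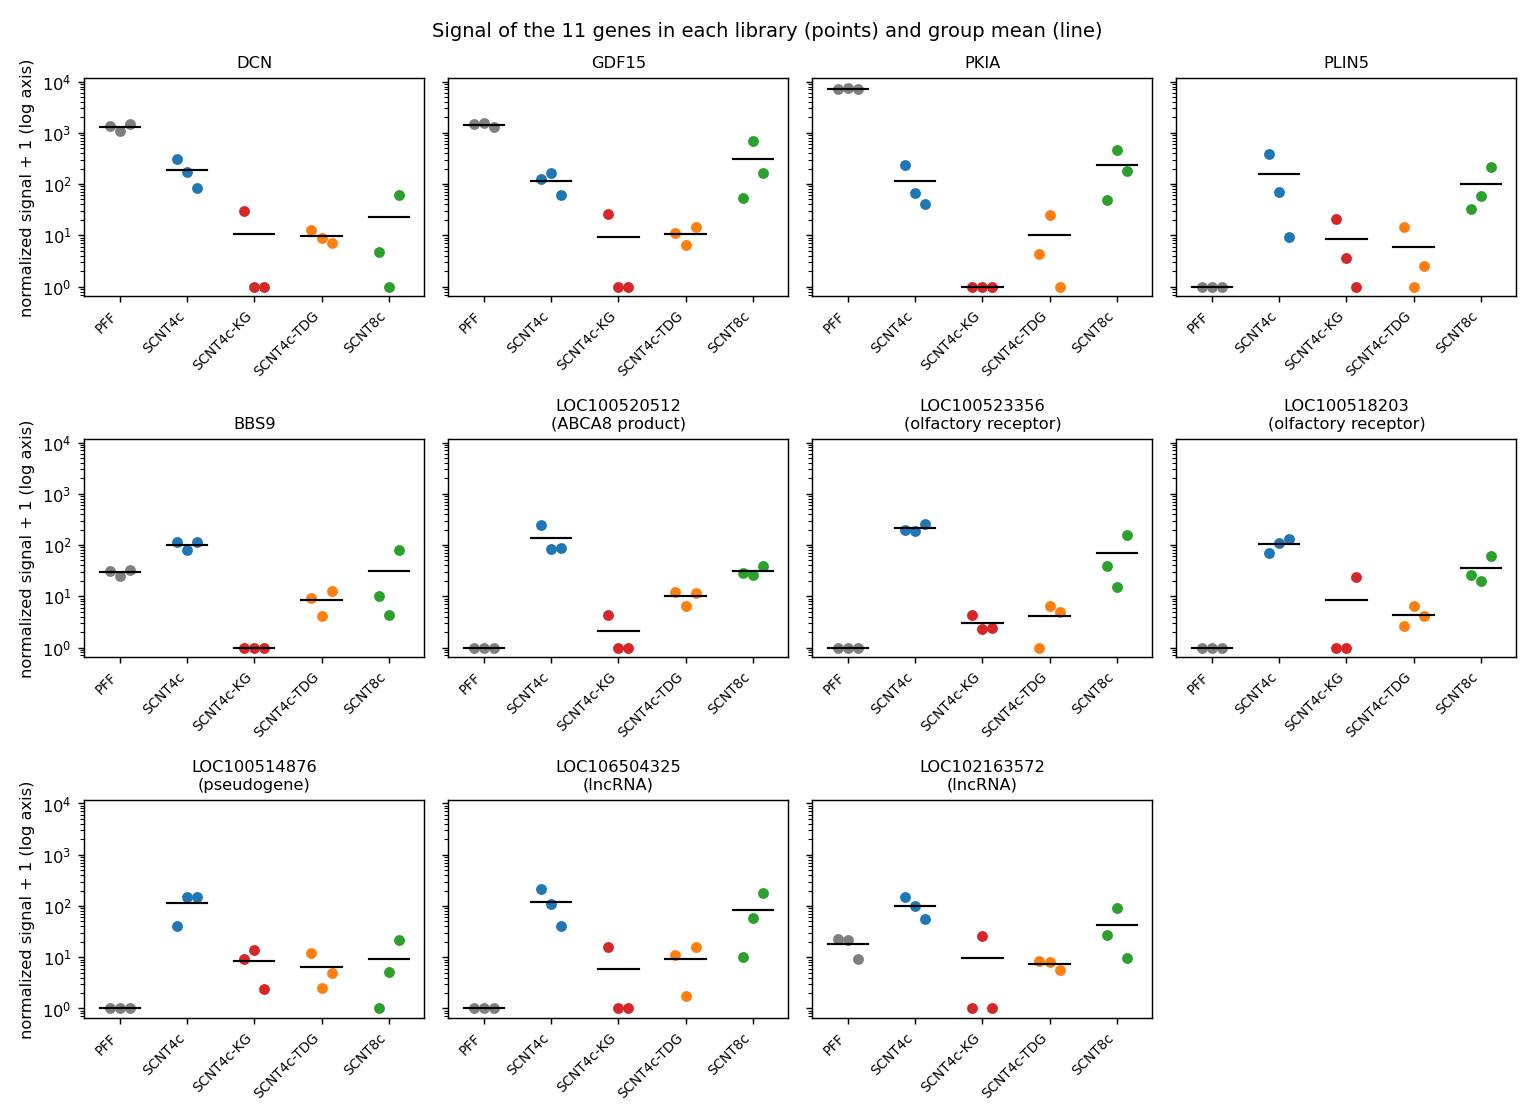
Normalized signal plus 1 (log axis) of each of the 11 genes in the 15 libraries, with 3 points a group and a line at the group mean. DCN, GDF15 and PKIA are highest in PFF, 6 genes lie at 0 in PFF, and in SCNT4c-KG 19 of 33 values lie at 0.

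Decorin (DCN) is a small leucine-rich proteoglycan that binds collagen fibrils and is a marker of fibroblasts. It lies at chr5:91678601-91713925 on the plus strand of Sscrofa11.1. Its signal was 1360, 1099 and 1493 in PFF, and 306, 170 and 81.4 in SCNT4c libraries a, b and c. In SCNT4c-KG it was 29.4, 0 and 0, and in SCNT4c-TDG 11.7, 7.67 and 6.12. The lowest SCNT4c library lay above every treated library, and the SCNT4c-KG mean of 9.80 came from replicate 1 alone. In SCNT8c the values were 3.73, 0 and 61.3. The SCNT8c mean of 21.7 thus rested on replicate 3. The matrix proteoglycan gene next to it, LUM, at 3723 in PFF, was at a mean of 5.21 in SCNT4c, where DCN had 186 and the collagen gene COL1A2 2535.

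Growth differentiation factor 15 (GDF15) is a secreted protein of the TGF-beta superfamily that rises in stressed cells. Its model, partial in the annotation, lies at chr2:59409035-59411356 on the minus strand. Its signal was 1494, 1560.2 and 1282 in PFF, and 126, 160 and 60.6 in SCNT4c. In SCNT4c-KG it was 24.5, 0 and 0, and in SCNT4c-TDG 10.03, 5.37 and 13.8. SCNT8c gave 51.3, 707 and 162. Every SCNT8c library was above every treated library, and replicate 2 was far above its group. The SCNT8c mean was 307 ± 351 (SD, n = 3), 2.65 times the SCNT4c mean.

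The protein kinase inhibitor PKIA is a small peptide that binds and blocks the catalytic subunit of cAMP-dependent protein kinase. Its model, also partial, lies at chr4:57872114-57879184 on the minus strand. It had the highest PFF level of the 11, at 7261, 7370.3 and 7248. In SCNT4c it was at 236, 66.4 and 39.9, with library a well above the others. No read was found in any SCNT4c-KG library, which makes the SCNT4c mean at least 23.3-fold higher than the level that 3 reads in each library would give, and at least 10.8-fold without SCNT4c library a, where the mean was 53.1. SCNT4c-TDG gave 3.34, 23.8 and 0. The signal in SCNT8c was 48.5, 461 and 179, all above the treated libraries. PKIA and GDF15 were the 2 members with a higher mean in SCNT8c than in SCNT4c, which 48.8% of the 5644 genes had, and the 2 with a SCNT8c mean of at least 100, against 89.6% of the 5644 and 62.5% of the 1308 genes with a SCNT4c mean from 100 to the highest of the 11. Without SCNT8c replicate 2 their means were 114 for PKIA and 106 for GDF15, both below SCNT4c, and no member had a higher mean in SCNT8c.

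Fibroblast markers were far lower in all embryos than in PFF. The summed signal of 12 fibroblast markers, DCN among them, was 3881647 to 4107380 in PFF, 4270 to 5469 in SCNT4c, 2646 to 3884 in SCNT4c-KG, 1794 to 2344 in SCNT4c-TDG and 2156 to 2452 in SCNT8c. Of the 12, 7 had a mean of at least 100 in SCNT4c, 6 in SCNT4c-KG, 6 in SCNT4c-TDG and 5 in SCNT8c, while PDGFRB and COL6A3 were at 0 in SCNT4c, and LUM was at 0 in SCNT4c-KG and SCNT8c. The summed signal of 11 cumulus markers, from the cells that surround the oocyte, was 1406 to 1823 in SCNT4c, 766 to 869 in SCNT4c-KG, 457 to 585 in SCNT4c-TDG and 1330 to 1923 in SCNT8c, with AMH, FOXL2 and PTX3 at 0 in SCNT4c. INHBA carried most of it, with means of 1412, 673, 486 and 1487 in these groups, and 6 of the 11 had a SCNT4c mean of at most 10. The summed signal of 14 oocyte and early embryo markers was 201535 to 219802 in SCNT4c, 80734 to 122515 in SCNT4c-KG, 61222 to 66488 in SCNT4c-TDG and 52635 to 151037 in SCNT8c, with 8, 9, 7 and 8 of them at a mean of at least 100 and BMP15, GDF9 and MOS at 0 in all of these. These 3 sums fell with the members from SCNT4c to the treated groups, but single fibroblast and oocyte markers went both ways. In SCNT4c, SCNT4c-KG and SCNT4c-TDG the fibroblast gene COL1A2 had means of 2535, 472 and 449. In the same groups VIM had 482, 1380 and 809, and THY1 106, 700 and 173. The oocyte genes ZP4 and KPNA7 had 74784, 35050 and 11245, and 115607, 30102 and 12006, while DPPA3 had 4897, 23345 and 34780. The part of these lists in the members' levels was not tested. The sum of 5 leukocyte markers was 97.0 to 223 in SCNT4c, 438 to 583 in SCNT4c-KG and 143 to 167 in SCNT4c-TDG, and that of 3 erythroid markers had means of 6.76, 16.0 and 3.69 in these groups.

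The test of SCNT8c against PFF used neither of the levels behind the choice. With limma on log2(signal + 1), 6793 of 18448 features (36.8%) were lower in SCNT8c and 6220 (33.7%) were higher, a share of higher calls of 47.8% that became 57.3% with the same total in each library, 58.6% in edgeR and 58.5% in DESeq2. Scaling to the same total multiplies SCNT8c relative to PFF by a log2 factor of 0.68, and the change on the log2(signal + 1) scale is smaller for low genes. Of the 11 members, 10 had a mean of at least 10 over these 6 libraries and were tested, and 3 were called lower and 5 higher. PKIA was lower by a log2 fold change of -5.51 (SE 0.77, adjusted p = 0.00091) and DCN by -7.62 (SE 1.42, adjusted p = 0.0032), and both stayed called under every alternative run. The DCN difference ran from -9.23 without SCNT8c replicate 3 and -6.25 without replicate 2 to -5.06 in DESeq2, and that of PKIA from -6.27 to -4.43. GDF15 was lower by -2.99 (SE 0.90, adjusted p = 0.023), and lost the call under 8 alternatives, among them each PFF library left out, with adjusted p up to 0.12. The p-values measure only the spread between these libraries.

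**Figure D3:**
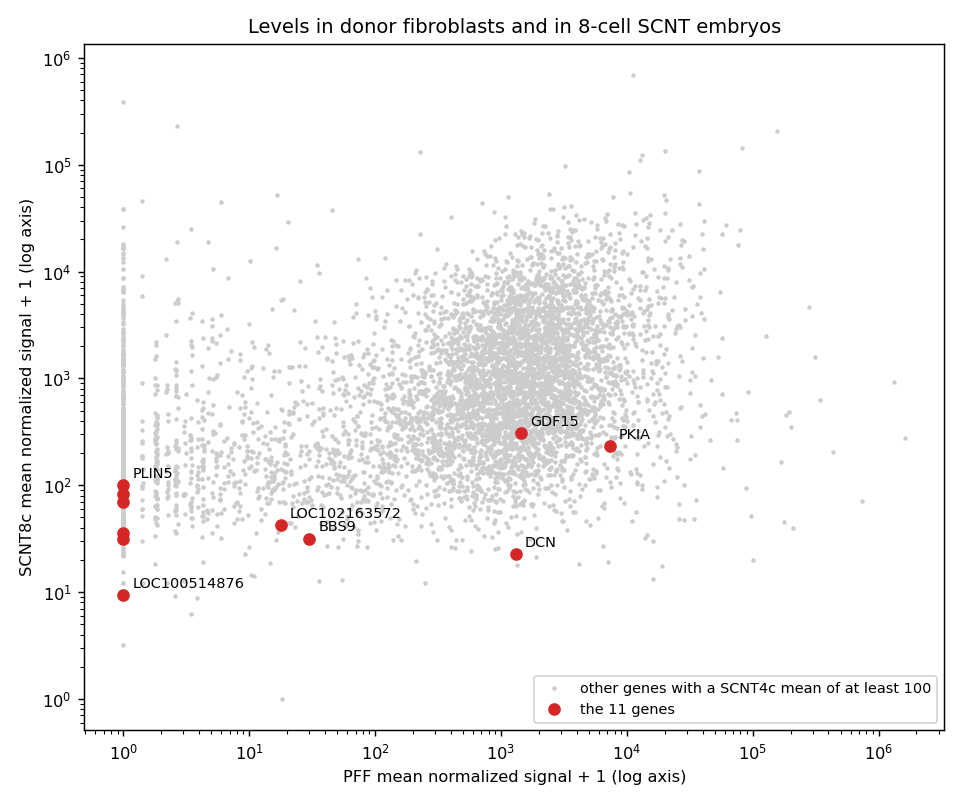
Mean normalized signal plus 1 in PFF (horizontal, log axis) and in SCNT8c (vertical, log axis) for the 5644 genes with a SCNT4c mean of at least 100, with the 11 genes in red. DCN, GDF15 and PKIA lie at the right, BBS9 and LOC102163572 in the middle, and the 6 genes without a read in PFF at the left edge.

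BBS9 is a subunit of the BBSome, a complex that carries membrane proteins into and out of the primary cilium. It lies at chr18:39663720-40394244 on the minus strand. Its SCNT4c values of 111, 80.4 and 112 were the most even among the 11 genes. It had no read in any SCNT4c-KG library, against which the SCNT4c mean is at least 20.7-fold higher, and 8.36, 3.07 and 11.5 in SCNT4c-TDG. In SCNT8c it was at 9.34, 3.33 and 79.2, and in PFF at 30.5, 24.2 and 32.2. The SCNT8c and PFF libraries overlapped, with a log2 difference of -0.96 (SE 1.06, adjusted p = 0.44), and without SCNT8c replicate 3 BBS9 was called lower at -2.15 (adjusted p = 0.010). The gene spans 730525 bases, and 6 assembled transcripts share its locus. Summed with these, the signal went from 492 in SCNT4c to 407 in SCNT4c-KG and 291 in SCNT4c-TDG, in proportion a far smaller decrease than on the annotated gene. The locus holds 7 other known genes, so these transcripts are not shown to belong to BBS9.

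LOC102163572 is an uncharacterized long non-coding RNA at chr9:36119956-36137176 on the plus strand. Its start lies 19 bases from ALKBH8, a tRNA methyltransferase gene on the other strand, and the strand setting of the counting is not stated. It had 147, 100.5 and 54.8 in SCNT4c, 0, 25.4 and 0 in SCNT4c-KG, and 7.53, 6.90 and 4.59 in SCNT4c-TDG. SCNT8c replicates 1 to 3 had 26.1, 89.8 and 8.45, and PFF 22.0, 20.4 and 8.34. SCNT8c and PFF overlapped, with a log2 difference of 0.78 (SE 0.90, adjusted p = 0.45) that went to -0.05 without SCNT8c replicate 2 and to 1.58 without replicate 3. The mean of ALKBH8 was 682 in SCNT4c, 289 in SCNT4c-KG, 363 in SCNT4c-TDG and 1496 in SCNT8c.

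Perilipin 5 (PLIN5) coats lipid droplets and links them to mitochondria in tissues that burn fat, and pig oocytes are rich in such droplets. It lies at chr2:74304613-74314314 on the plus strand. The table pairs this symbol with the NCBI gene number of its neighbour LRG1, so its identity rests on the symbol. PLIN5 had no read in PFF. Its SCNT4c values were the most uneven, at 382, 68.2 and 8.30, and it was the only one of the 11 genes whose lowest SCNT4c library did not exceed every treated library. SCNT4c-KG gave 19.6, 2.54 and 0, and SCNT4c-TDG 13.4, 0 and 1.53. Summed with the 1 assembled transcript of its locus, the signal was 168 in SCNT4c, 267 in SCNT4c-KG and 23.9 in SCNT4c-TDG, so under KDM4A and GSK126 the direction turned for this sum. The transcript alone had 15.6 in SCNT4c and 259 in SCNT4c-KG. With 5 other known genes at the locus, it is not shown to belong to PLIN5. In SCNT8c the gene was read at 31.7, 56.5 and 211, above every treated library. Its mean in SCNT8c was at least 26.1-fold higher than 3 reads in each PFF library would give, and at least 11.6-fold without SCNT8c replicate 3. LRG1, a secreted leucine-rich glycoprotein gene 1495 bases away on the same strand, was also unread in PFF and had means of 76.7 in SCNT4c, 12.8 in SCNT4c-KG, 5.20 in SCNT4c-TDG and 66.2 in SCNT8c. PLIN4, 4309 bases away, had no read in SCNT4c.

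The promoters of GDF15, PLIN5 and the olfactory receptor LOC100523356 are given because they belong to a stress cytokine, a droplet gene unread in the donor cells, and the member that met the limits in every library. Each run holds the 250 bases before the annotated start, read from the RefSeq build Sscrofa11.1, release 106, 5′ to 3′ along the gene's strand, at chr2:59411357-59411606, minus strand, chr2:74304363-74304612, plus strand and chr2:14484053-14484302, minus strand. Capitals mark the motifs TATAAA (the TATA box), CCAAT and GGGCGG (a GC box) on either strand.
GDF15: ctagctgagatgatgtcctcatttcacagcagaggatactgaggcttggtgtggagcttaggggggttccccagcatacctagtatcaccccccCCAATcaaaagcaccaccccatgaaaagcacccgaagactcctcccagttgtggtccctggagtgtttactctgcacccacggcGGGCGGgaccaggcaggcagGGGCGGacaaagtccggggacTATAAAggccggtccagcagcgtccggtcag
PLIN5: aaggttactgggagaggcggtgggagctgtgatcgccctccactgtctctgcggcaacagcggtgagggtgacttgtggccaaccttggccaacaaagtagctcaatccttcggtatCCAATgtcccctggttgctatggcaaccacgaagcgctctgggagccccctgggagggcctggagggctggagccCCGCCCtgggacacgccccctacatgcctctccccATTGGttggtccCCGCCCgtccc
LOC100523356: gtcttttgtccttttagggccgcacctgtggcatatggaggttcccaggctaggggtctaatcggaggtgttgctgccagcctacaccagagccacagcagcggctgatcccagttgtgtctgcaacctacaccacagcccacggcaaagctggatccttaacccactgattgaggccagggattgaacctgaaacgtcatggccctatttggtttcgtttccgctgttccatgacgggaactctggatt
GDF15 held all 3 motifs, PLIN5 held CCAAT and GGGCGG, and LOC100523356 held none. Over 19525 promoters of protein-coding genes, TATAAA was found in 9.76%, CCAAT in 31.9% and GGGCGG in 45.9%. TGACGTCA, the cAMP response element, and TGANTCA, the AP-1 motif, were in none of these 3. The number of CG pairs, the sites of DNA methylation, was 9 in GDF15, 11 in PLIN5 and 8 in LOC100523356, against a median of 12. These motifs and counts are features of the letters and no measurement of binding or methylation.

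LOC100523356, an olfactory receptor 4X2-like gene, had the highest SCNT4c mean of the 11 and the lowest SCNT4c-TDG mean. Olfactory receptors are G-protein-coupled receptors that detect odorants in sensory neurons of the nose, and their genes stand in clusters of near-identical copies. The gene lies at chr2:14482745-14484052 on the minus strand, as 1 exon of 1308 bases. It had 192, 184 and 261 in SCNT4c, 3.27, 1.27 and 1.42 in SCNT4c-KG, and 0, 5.37 and 3.83 in SCNT4c-TDG. It was the only gene that met the limits in each single library, and its SCNT4c signal was the highest of the 11 also per length, at 162 a kilobase of exon. Over all SCNT4c libraries 768 reads fell on it, against 4 in SCNT4c-KG and 12 in SCNT4c-TDG. SCNT8c gave 37.3, 14.1 and 155, above every treated library, and PFF had no read. The SCNT8c mean of 68.9 was at least 18.0-fold higher than 3 reads in each PFF library would give, and at least 6.74-fold without SCNT8c replicate 3. Summed with the 3 assembled transcripts of its locus, the gene had 239, 17.4 and 9.11 in SCNT4c, SCNT4c-KG and SCNT4c-TDG. The 10 other known genes of the locus are not in this sum.

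By group mean, the 4 other receptor genes of its locus with a SCNT4c mean of at least 100 were also highest in SCNT4c, next in SCNT8c, and lowest in the treated groups and PFF. Of these, LOC100523887 went from 365 in SCNT4c to 31.5 in SCNT4c-KG and 38.8 in SCNT4c-TDG, LOC110259272 from 314 to 53.9 and 25.9, LOC102162473 from 207 to 19.5 and 19.7, and LOC100523717 from 260.3 to 54.0 and 45.3. These neighbours kept between 8.26% and 20.7% of the SCNT4c mean in the treated groups, against 0.936% and 1.44% for LOC100523356. The highest share, that of LOC100523717 in SCNT4c-KG, leaned on replicate 3, as its library values were 22.9, 27.9 and 111. Their SCNT8c means were 42.4 to 87.7, and replicate 3 was the highest SCNT8c library for each. In replicates 1 and 2 LOC110259272 had 22.4 and 42.4, below its SCNT4c-KG mean. In replicate 2 LOC100523717 had 48.2, below its SCNT4c-KG mean, and LOC100523887 24.9, below both treated means. Only LOC102162473 had each SCNT8c library above both treated means. The phosphatase gene PTPRJ at the same locus, with its midpoint 153 kb from that of LOC100523356, had 304, 230 and 330 in SCNT4c, SCNT4c-KG and SCNT4c-TDG. The spans of 3 receptor genes overlap LOC100523356 on the same strand. LOC100523717, with 260.3 in SCNT4c, is one of them. The other two, LOC100522784 and LOC100523167, were listed at 0 throughout, and the split of reads among overlapping and similar copies is uncertain.

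**Figure D4:**
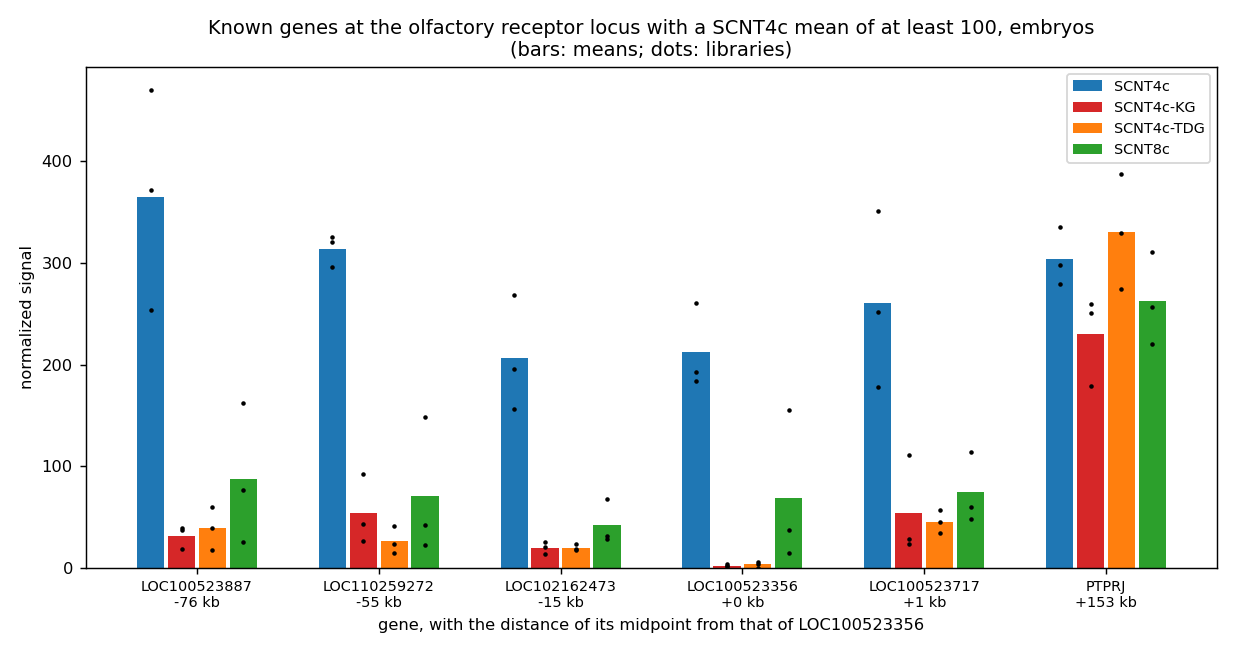
Normalized signal (linear axis from 0) of the known genes with a SCNT4c mean of at least 100 at the locus of LOC100523356, ordered by the distance of midpoints in kb, in the 4 embryo groups, with bars for group means and dots for the 3 libraries of each group. The 5 olfactory receptor genes are high in SCNT4c (blue) and low in SCNT4c-KG (red) and SCNT4c-TDG (orange), and PTPRJ has 304, 230 and 330 in these groups.

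The second receptor among the members, LOC100518203 (olfactory receptor 10G2-like), lies at chr7:77575250-77576590 on the plus strand inside the span of SALL2. It had 67.8, 111 and 129 in SCNT4c, 0, 0 and 22.8 in SCNT4c-KG, 1.67, 5.37 and 3.06 in SCNT4c-TDG, 25.2, 19.1 and 59.2 in SCNT8c and no read in PFF. Summed with the 2 assembled transcripts of its locus, the gene had 213 in SCNT4c, 44.9 in SCNT4c-KG and 18.2 in SCNT4c-TDG. The locus holds 3 other known genes, which are not in this sum. SALL2 itself had a mean of 0.831 in SCNT4c, far below the receptor within it.

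Most olfactory receptor genes were at or near 0 here. The table lists 999, of which 920 had a SCNT4c mean of at most 10 and 19 a mean of at least 100. All 19 had a PFF mean of at most 2.46. For the 17 that are not members, the SCNT4c-KG mean was 6.69% to 42.9% of the SCNT4c mean (median 10.6%) and the SCNT4c-TDG mean 4.55% to 183% (median 12.3%), against medians of 69.5% and 74.4% over the 5644 genes. The exception above 100% was LOC110260593, at 159 in SCNT4c and 292 in SCNT4c-TDG. In SCNT8c the 17 genes stood at a median of 40.9% of SCNT4c, against 98.0%. Of the 19 genes, 12 are among the 5644, which hold no LOC110 symbols. The median SCNT4c mean was 159 for the 19 and 600.3 for the 5644, so these shares are not matched for level. The treated levels of the 2 members were set by the choice, and the other receptor genes were named after their values were seen.

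**Figure D5:**
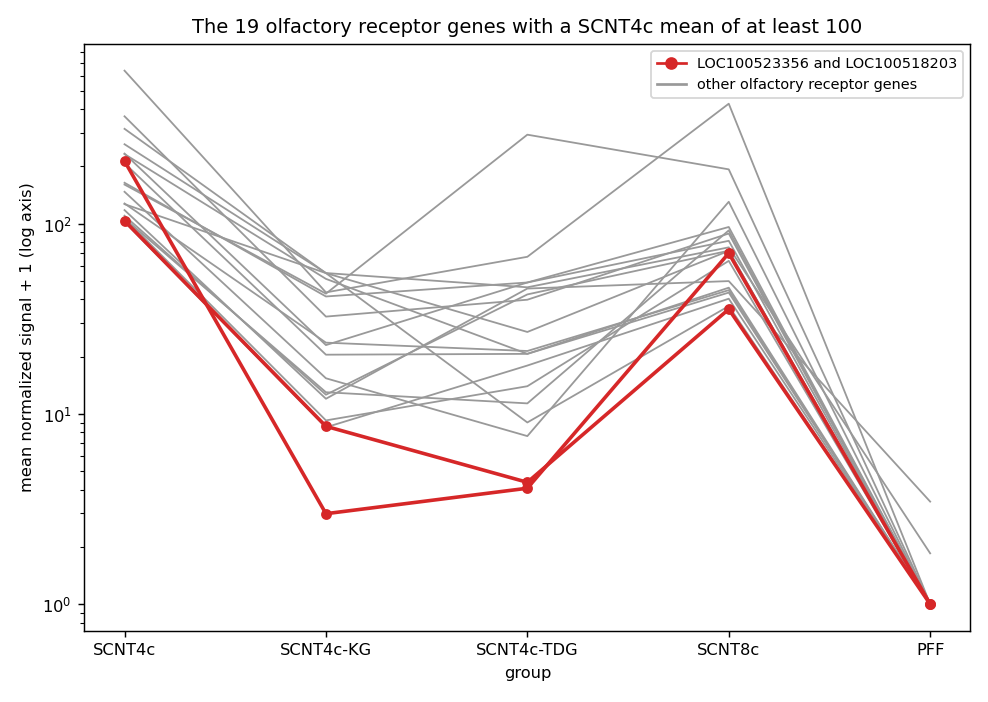
Mean normalized signal plus 1 (log axis) by group for the 19 olfactory receptor genes with a SCNT4c mean of at least 100, one line a gene. LOC100523356 and LOC100518203 (red) are the lowest of the 19 in SCNT4c-TDG, all 19 lie at or near 0 in PFF, and one grey line rises to 292 in SCNT4c-TDG.

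LOC100520512 encodes an ATP-binding cassette protein annotated as subfamily A member 8, from a family of lipid transporters. It lies at chr12:11366734-11447297 on the plus strand and overlaps ABCA6. SCNT4c gave 239.8, 81.3 and 86.3, SCNT4c-KG 3.27, 0 and 0, and SCNT4c-TDG 10.9, 5.37 and 10.7. SCNT8c had 28.0, 24.9 and 38.0, the most even values of any member there, and PFF had none. Its SCNT8c mean was at least 7.94-fold higher than 3 reads in each PFF library, and 22.3% of the SCNT4c mean, which leaned on library a. ABCA6 stayed at a mean of 9.40 in SCNT4c and 10.4 in SCNT8c.

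LOC106504325 is an uncharacterized long non-coding RNA at chr7:10796441-10905531 on the minus strand. It had 209.8, 107 and 39.0 in SCNT4c, 14.7, 0 and 0 in SCNT4c-KG, 10.03, 0.767 and 14.5 in SCNT4c-TDG, and 9.34, 56.5 and 182 in SCNT8c, with no read in PFF. Together with the 2 assembled transcripts of its locus it had 454, 239 and 141 in SCNT4c, SCNT4c-KG and SCNT4c-TDG, and 5 other known genes lie there. The pseudogene LOC100514876, at chr15:19877326-19879760 on the plus strand, had 39.4, 146 and 150.3 in SCNT4c, 8.17, 12.7 and 1.42 in SCNT4c-KG, 10.9, 1.53 and 3.83 in SCNT4c-TDG, and 0, 4.16 and 21.1 in SCNT8c. It was the only member with a SCNT8c mean of at most 10, which 0.106% of the 5644 genes and 0.459% of the 1308 in the members' SCNT4c range had. Together with the 4 assembled transcripts of its locus it had 1774, 688 and 547 in the 3 four-cell groups, and 3 other known genes lie there.

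The 5 members called higher in SCNT8c than in PFF were PLIN5, LOC100520512, LOC100523356, LOC106504325 and LOC100518203. All 5 had no read in PFF and passed the filter through SCNT8c alone, so they had to differ, and the call adds nothing to the levels given. PFF and SCNT8c did not overlap for 8 of the 10 members tested, these 5 included, against 77.3% of all features tested.

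In SCNT8c all 11 members had a mean above both treated means, which 48.03% of the 5644 genes had, and for 5 of 11 every SCNT8c library was above every treated library, against 16.0%. Without replicate 3 the first of these counts was 8 of 11, as the means of DCN, BBS9 and LOC100514876 were then below a treated mean. The treated levels were low by the choice, so these counts are a description. The SCNT8c mean was a median of 0.337 of the SCNT4c mean (0.0753 to 2.65), against 0.980, and of 0.216 without replicate 3. Replicate 3 was the highest SCNT8c library for 8 of 11 members, against 42.9%, and library a was the highest SCNT4c library for 6 of 11, against 39.1%.

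Membership depended on single libraries. The lowest SCNT4c library exceeded every treated library for 10 of 11 members, against 31.9% of the 5644 genes, a count on the values that chose the members and so a description. Only LOC100523356 had every SCNT4c library at 100 or more, against 86.7% of the 5644 and 45.8% of the 1308 genes with a SCNT4c mean in the members' range. The genes were also chosen again with a library left out, and the left-out library was then read. Of 5, 14 and 12 genes chosen without SCNT4c libraries a, b and c, 3, 4 and 1 had at least 100 in that library. Of 15, 12 and 6 genes chosen without SCNT4c-KG replicates 1, 2 and 3, 5, 6 and 5 had at most 10 there. Of 11, 8 and 14 genes chosen without SCNT4c-TDG replicates 1, 2 and 3, 4, 7 and 6 had at most 10. For genes chosen without them, the left-out treated libraries held 0 to 64.7 in SCNT4c-KG and 0 to 49.7 in SCNT4c-TDG. Over 9 such choices, LOC100523356 was taken in 9, DCN, PLIN5, BBS9, LOC100520512 and LOC106504325 in 7, PKIA, LOC100514876 and LOC102163572 in 6, and GDF15 and LOC100518203 in 5.

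Genes just past the limits had like levels. Nearest inside the SCNT4c limit were LOC102163572 and BBS9 at 101, and nearest outside were RTN4IP1 at 99.2 and TBATA at 98.7. For SCNT4c-KG, DCN at 9.80 and LOC102163572 at 8.46 lay inside and TLR10 at 10.6 and LOC106509560 at 10.8 outside. For SCNT4c-TDG, GDF15 at 9.73 and PKIA at 9.04 lay inside and IGFBP5 at 10.3 and HRH1 at 11.2 outside. IGFBP5, which binds insulin-like growth factors, had a PFF mean of 14355 and a SCNT8c mean of 33.2, and the histamine receptor gene HRH1 249 and 11.3. The other 4 outside had PFF means of 0.41 to 1.24, with SCNT8c means of 99.3 in RTN4IP1, 15.7 in TBATA, 11.2 in TLR10 and 228 in LOC106509560.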

How the data were processed

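RNA-seq of PFF, SCNT4c, SCNT4c-KG, SCNT4c-TDG and SCNT8c was analysed, with 3 libraries in each group. The libraries were SMARTer-amplified cDNA. In the authors' pipeline Trimmomatic 0.39 did the trimming, STAR 2.5.3a placed the reads on Sscrofa11.1, uniquely placed reads were kept, and StringTie 2.1.2 and HTSeq gave the transcripts and their counts. The deposited values are a normalized signal, reads divided by a factor for each library. The factor and the strand setting are not given in the sources used here. In every library 100% of values were whole multiples of 1 read, within 0.01, which gave back the reads.

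Repeated gene IDs (241) were removed. Group membership came from the labels. SCNT8c was compared with PFF by limma 3.58.1 (R 4.3.3) with an intensity trend on log2(value + 1) for features with a mean of at least 10. Adjusted p-values are Benjamini-Hochberg over all features, and a call needed one under 0.05 and a fold change above 2. edgeR 4.0.16 and DESeq2 1.42.0 on the recovered reads, other pseudocounts, filters and scalings, a replicate block, and each library left out in turn were alternatives. The limma step was tested on simulated data, where it called few of the changed genes, so a gene not called is not shown to be unchanged. Named genes were all members with a symbol of their own, the 5 members with the highest mean in SCNT4c, SCNT8c and PFF, and the 2 genes nearest each side of each limit. LOC100518203, LOC100514876, single markers, neighbouring genes and other receptor genes were named after their values were seen. The members and gene lists were chosen with earlier results of these data known. Gene models and sequences came from RefSeq release 106 of Sscrofa11.1, the build of the files. Python 3.11.15 with pandas 2.3.3, numpy 2.4.6 and matplotlib 3.10.9 was used.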

Additional observations from a re-analysis of the deposited data

How the results depend on the processing

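The number of genes that met the limits was 11. It was 1 when the limits applied to every library, 7 when the assembled transcripts of a locus were added to its gene, of which 5 were members, and 5 to 15 with a library left out, lowest without SCNT4c library a and 6 without SCNT4c-KG replicate 3. It was 9 with the same total in each library and 11 with group medians, and 6 of the 11 members were shared in each case. Members with a SCNT8c mean of at most 10 numbered 1, against 3 with group medians, 0 with the summed locus, and 0 to 3 with a SCNT8c library left out. Members with a SCNT8c mean of at least 100 numbered 2, against 6 with the summed locus and 2 to 4 with a SCNT8c library left out, the highest without replicate 1. As alternatives chosen after seeing the data, a SCNT8c library was left out of the counts of members with a SCNT8c mean above SCNT4c, 2 with all libraries and 0 to 3 without one, and above both treated means, 11 with all libraries and 8 to 11 without one. A SCNT4c library was likewise left out of the bounds of PKIA and BBS9 over SCNT4c-KG, which ran from 10.8-fold to 30.8-fold and from 19.5-fold to 22.8-fold. Counts of members by their PFF mean did not change by more than 1.5 times under the alternatives run.

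Of SCNT8c against PFF, the 5 members called higher became 0 with a minimum mean of 50, which left 3 members to test. The call of GDF15 was lost with quantile normalization (-2.23), the same total (-2.31), edgeR (-1.69), DESeq2 (-1.72), each PFF library left out (-3.07 to -2.93) and SCNT8c replicate 3 left out (-2.90). The sign of the BBS9 difference, which was not called, was positive in edgeR (0.70) and DESeq2 (0.92). With the replicate number as a block, 5 members were higher and 3 lower, as without it. Deviations of PFF and SCNT8c libraries with the same number correlated at -0.014, 0.015 and -0.017, so the numbers were not taken as pairs. No pairing was possible for SCNT4c, whose labels conflict. With 3 libraries a group and a limit of 10 that stood for as few as 6.12 reads, a level in a treated group near 0 is not shown to be absent.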
